A study of Sus scrofa with 6 samples.

Results

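The genes described here are 10 enzymes of serine synthesis and one-carbon metabolism, namely PHGDH, PSAT1, PSPH, SHMT1, SHMT2, MTHFD1, MTHFD2, MTHFD1L, GLDC and MAT2A. They were chosen by symbol, and all 10 were found among the 20131 genes of the table. The study compared pig pre-gastrulation epiblast stem cells (pgEpiSC), stem cells derived from the epiblast of Sus scrofa embryos at embryonic day 10, with porcine embryonic fibroblasts (pEF) of fetuses at embryonic day 30. There were 4 pgEpiSC and 2 pEF libraries, made from rRNA-depleted total RNA with strand kept, and the design text calls them biological replicates. No transgene, treatment or culture condition is given in the labels, nor whether the 4 pgEpiSC libraries came from separate lines, so p-values measure the spread between these libraries.

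Cells make serine from the glycolytic intermediate 3-phosphoglycerate in successive steps catalysed by PHGDH, PSAT1 and PSPH. Serine hydroxymethyltransferases then pass a carbon of serine to tetrahydrofolate and release glycine, with SHMT1 in the cytosol and SHMT2 in mitochondria. The mitochondrial enzymes MTHFD2 and MTHFD1L turn the bound carbon into formate, which the cytosolic enzyme MTHFD1 loads back onto folate for purine, thymidylate and methionine synthesis. GLDC, the decarboxylase of the mitochondrial glycine cleavage system, feeds the same folate pool, and MAT2A makes S-adenosylmethionine, the methyl donor for DNA and histones. Proliferating cells draw on this network, and pluripotent cells of the mouse are known for their dependence on it.

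Expression was deposited as TPM, a transcript level per length, so levels of different genes can be compared. Library totals over the listed genes ran from 157288 to 320206 TPM for pgEpiSC and were 93556 and 145611 TPM for pEF, and read depth is unknown. Folds are pgEpiSC minus pEF on the log2(TPM + 1) scale, fitted with limma across 10424 genes, and called genes had a Benjamini-Hochberg adjusted p under 0.05. Across the tested genes the median fold was 0.48 with the deposited values and 0.06 once libraries had been scaled by median ratios, in which each library is divided by its median ratio to the gene-wise geometric means, so both scales are given. Of 8 epiblast markers in the table, the summed level was 519 to 2044 TPM in pgEpiSC libraries and 0.133 and 0.685 TPM in pEF libraries. For 8 fibroblast markers the sum was 2.26 to 6.98 TPM in pgEpiSC libraries and 495 and 1332 TPM in pEF libraries. No gene of the hypoblast list exceeded 9.03 TPM, of the trophectoderm list 3.34 TPM, or of the blood and endothelium list 0.875 TPM in any pgEpiSC library. In bulk RNA, fewer cells that express a gene and less RNA of it per cell cannot be told apart.

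SHMT1, MTHFD1, GLDC and MAT2A were higher in pgEpiSC, and 0 of the 10 were called lower. SHMT1 and GLDC passed the filter of at least 1 TPM in at least 2 libraries only through pgEpiSC. They could enter the test only by being higher there, so their calls add nothing to the comparison with all genes. By the adjusted p, 18.0% of all tested genes were called higher and 9.43% lower. At an unadjusted limma p below 0.05 the counts among the 10 were 5 higher and 0 lower. The share of all tested genes at that unadjusted threshold was not counted. The libraries of the groups did not overlap for the same 4 enzymes, whereas 49.5% of all tested genes had groups that did not overlap, so that separation on its own was no more frequent among the 10. The median fold of the 10 was 0.65, and 5 of them lay above the all-gene median. After median-ratio scaling the 4 calls were kept, MTHFD1L was also called higher and PSPH was called lower, against 28.6% of all tested genes called higher and 29.8% called lower on that scale. The groups then did not overlap for 6 of the 10, against 70.8% of all tested genes.

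**Figure D1:**
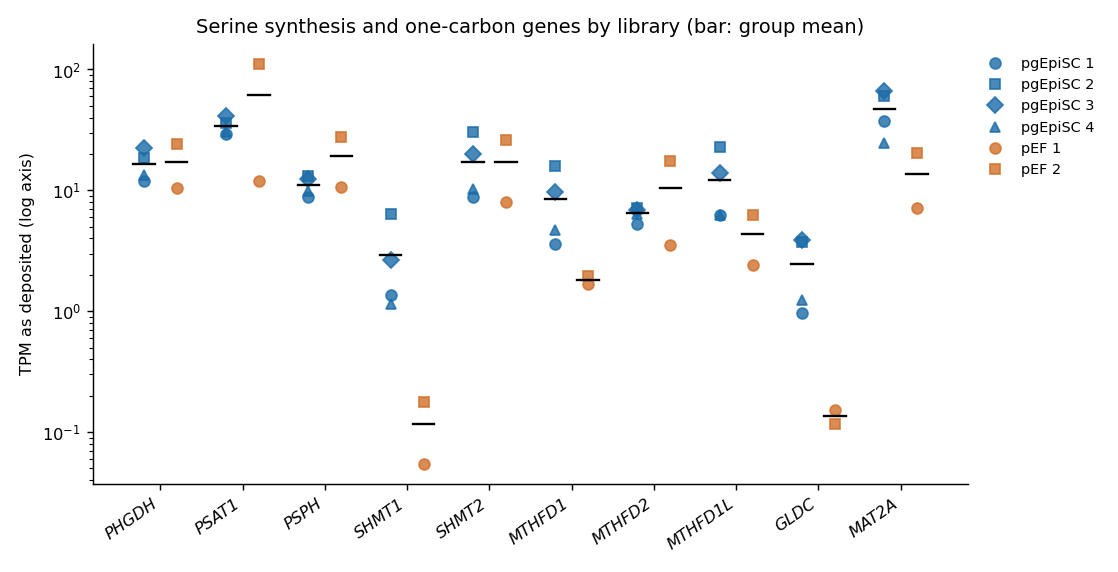
TPM as deposited (log axis) of the 10 genes in each of the 4 pgEpiSC libraries (left, blue) and the 2 pEF libraries (right, orange), with a bar at each group mean. SHMT1 and GLDC stood at 0.975 TPM or more in every pgEpiSC library and below 0.2 TPM in both pEF libraries. PHGDH, PSAT1, PSPH, SHMT2, MTHFD2 and MTHFD1L overlapped between the groups.

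PHGDH, the dehydrogenase that opens the serine pathway, was at 12.04, 18.5, 22.3 and 13.3 TPM in pgEpiSC libraries 1 to 4 and at 10.4 and 24.2 TPM in pEF libraries 1 and 2. Both pEF values lay outside the pgEpiSC range, one on each side, and the group means were 16.5 ± 4.74 (SD, n = 4) and 17.3 ± 9.76 TPM (SD, n = 2). The log2 fold was 0.01 ± 0.52 (SE; limma adjusted p = 0.990), with a 95% interval of -1.03 to 1.06. That interval holds a change of 1 log2 unit in either direction, so equal levels were not shown. After scaling the fold was -0.54 (interval -1.27 to 0.20, adjusted p = 0.177).

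PSAT1, the aminotransferase of the next step, had the highest mean of the 10 in pEF and ranked below MAT2A by its mean in pgEpiSC. Its level was 29.1, 36.1, 41.1 and 30.6 TPM in pgEpiSC libraries 1 to 4, against 11.9 and 111 TPM in pEF libraries 1 and 2. The pgEpiSC libraries lay between the pEF libraries, which differed 9.31-fold from each other. The fold was -0.12 ± 0.55 (adjusted p = 0.887, interval -1.24 to 0.99), and its sign depended on 1 library, since it was 1.43 without pEF replicate 2 and -1.68 without pEF replicate 1, neither called (adjusted p = 0.178 and 0.117). After scaling it was -0.68 (adjusted p = 0.391).

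PSPH, the phosphatase that releases serine, was at 8.79, 13.2, 12.4 and 9.86 TPM in pgEpiSC libraries and at 10.7 and 27.8 TPM in pEF libraries. The lower pEF library lay within the pgEpiSC range and the other above it. The fold of -0.62 ± 0.53 was not called as deposited (adjusted p = 0.390). After scaling all 4 pgEpiSC libraries (6.14 to 13.6 scaled TPM) lay below both pEF libraries (18.3 and 28.6), and PSPH was lower at a fold of -1.17 ± 0.33 (adjusted p = 0.0179). PSPH was no longer called when pEF replicate 2 (adjusted p = 0.104) or pgEpiSC replicate 3 (adjusted p = 0.0554) was left out.

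The serine hydroxymethyltransferases behaved differently from each other. SHMT1, the cytosolic form, was at 1.36, 6.41, 2.68 and 1.15 TPM in pgEpiSC libraries and at 0.0550 and 0.179 TPM in pEF libraries. The means, 2.90 ± 2.44 (SD, n = 4) and 0.117 ± 0.0876 TPM (SD, n = 2), differed 24.8-fold, and no library of one group reached the range of the other. The log2 fold was 1.62 ± 0.50 (adjusted p = 0.0127), a scale that understates the change of genes near 1 TPM; with a pseudocount of 0.1 it was 3.53. SHMT1 passed the filter on low values only through pgEpiSC.

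SHMT2, the mitochondrial form, was at 8.79, 30.4, 19.9 and 10.2 TPM in pgEpiSC libraries and at 8.05 and 26.2 TPM in pEF libraries. The higher pEF library lay within the pgEpiSC range and the other just below it, and the means were 17.3 ± 10.01 and 17.1 ± 12.8 TPM. The fold was 0.06 ± 0.55 (adjusted p = 0.946, interval -1.05 to 1.18), and -0.49 after scaling (adjusted p = 0.152). Within pgEpiSC the highest library exceeded the lowest 3.46-fold as deposited and 1.15-fold after scaling.

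A ratio of paralogs within a library does not depend on how libraries are scaled. SHMT2 transcripts exceeded those of SHMT1 by 6.47, 4.74, 7.42 and 8.90-fold in pgEpiSC libraries 1 to 4, against 146 and 146-fold in pEF libraries 1 and 2. Expressed as a share, SHMT1 made up 10.1 to 17.4% of the summed SHMT transcripts in pgEpiSC and 0.678 and 0.679% in pEF. The mean log2 ratio differed by -4.45 between the groups (exact two-sided permutation test, p = 0.0667, the smallest that 15 splits allow; 0.1 when adjusted over the 3 ratios compared), and by -1.56 with 1 TPM added to each level. The SHMT1 values of pEF are so low that the near identity of its 2 ratios rests on levels under 0.2 TPM.

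**Figure D2:**
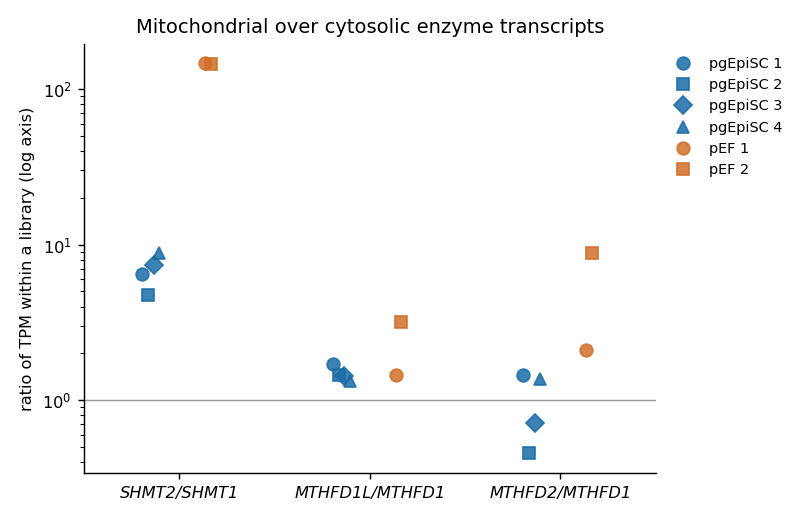
Ratio of TPM of a mitochondrial to a cytosolic enzyme within each library (log axis), with pgEpiSC libraries on the left in blue and pEF libraries on the right in orange. SHMT2/SHMT1 was 4.74 to 8.90 in pgEpiSC and 146 in both pEF libraries, MTHFD2/MTHFD1 was lower in every pgEpiSC library than in either pEF library, and MTHFD1L/MTHFD1 overlapped.

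MTHFD1, the cytosolic enzyme that charges folate with formate and interconverts the products, was at 3.63, 15.8, 9.72 and 4.71 TPM in pgEpiSC libraries and at 1.68 and 1.97 TPM in pEF libraries. Every pgEpiSC library lay above both pEF libraries. The fold was 1.56 ± 0.58 (adjusted p = 0.0391) as deposited and 1.09 ± 0.19 (adjusted p = 0.00169) after scaling. The call as deposited was lost without pgEpiSC replicate 3 (adjusted p = 0.140), whereas after scaling it was kept with each library left out in turn.

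MTHFD2, the mitochondrial dehydrogenase and cyclohydrolase that acts before formate is released, was at 5.24, 7.17, 6.91 and 6.42 TPM in pgEpiSC libraries. The highest exceeded the lowest 1.37-fold as deposited and 2.65-fold after scaling, the narrowest and the widest range of the 10 on those scales. The pEF libraries lay on either side of that range, at 3.52 and 17.4 TPM. The fold was -0.30 ± 0.56 (adjusted p = 0.722, interval -1.44 to 0.84) and -0.78 after scaling (adjusted p = 0.169). Relative to MTHFD1 in the same library, however, MTHFD2 was at 1.45, 0.454, 0.711 and 1.36 in pgEpiSC libraries and at 2.10 and 8.82 in pEF libraries. All 4 pgEpiSC ratios were lower, with a mean difference of -2.27 log2 units (exact two-sided permutation test, p = 0.0667, adjusted 0.1); it was -1.23 without pEF replicate 2 (exact p = 0.4). On the log2 scale the pEF ratios differed more from each other than the lower of them did from the pgEpiSC mean.

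MTHFD1L, the mitochondrial synthetase that releases formate, was at 6.23, 22.8, 13.9 and 6.28 TPM in pgEpiSC libraries and at 2.42 and 6.27 TPM in pEF libraries. The lowest pgEpiSC library fell just below the higher pEF library. The fold of 1.23 ± 0.57 was not called (adjusted p = 0.103). After scaling the pgEpiSC values drew together to 8.63 to 10.6 scaled TPM, against 4.13 and 6.46 in pEF, and MTHFD1L was called higher (0.73 ± 0.20, adjusted p = 0.0157), which was no longer the case when pEF replicate 1 was left out (adjusted p = 0.265). The MTHFD1L/MTHFD1 ratio was 1.72, 1.44, 1.43 and 1.33 in pgEpiSC against 1.44 and 3.18 in pEF and was not told apart (difference -0.54 log2 units, exact permutation p = 0.133).

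GLDC, the decarboxylase of glycine cleavage, had the lowest mean of the 10 in pgEpiSC, although SHMT1 was below it in libraries 3 and 4. It was at 0.975, 3.73, 3.88 and 1.24 TPM there and at 0.153 and 0.117 TPM in pEF libraries, with no overlap and an 18.2-fold difference between the means. The fold was 1.49 ± 0.47 (adjusted p = 0.0167) as deposited and 1.24 ± 0.18 (adjusted p = 7.41e-04) after scaling. GLDC also passed the filter only through pgEpiSC, so that both it and SHMT1 could enter the test only by being higher there.

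MAT2A, the catalytic subunit of the methionine adenosyltransferase found outside the liver, had the highest mean of the 10 in pgEpiSC, although PSAT1 exceeded it in library 4. Its level was 37.7, 59.9, 66.4 and 24.5 TPM in pgEpiSC libraries and 7.13 and 20.2 TPM in pEF libraries. The lowest pgEpiSC library was still above the higher pEF library, and the means differed 3.45-fold. The fold was 1.77 ± 0.52 (adjusted p = 0.00864) as deposited and 1.22 ± 0.33 (adjusted p = 0.0139) after scaling. It was the only one of the 4 calls as deposited that held without pEF replicate 2 (2.46, adjusted p = 0.00512); there SHMT1, MTHFD1 and GLDC had adjusted p of 0.162, 0.205 and 0.242.

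Without pEF replicate 1 none of the 4 was called as deposited (adjusted p = 0.282 for SHMT1, 0.343 for MTHFD1, 0.277 for GLDC and 0.425 for MAT2A, with folds of 1.54, 1.48, 1.51 and 1.08). A lone pEF library takes its spread from the pgEpiSC libraries, and over all genes 360 were then called higher. After scaling, SHMT1, MTHFD1 and GLDC were called with each of the 6 libraries left out in turn, and MAT2A with each except pEF replicate 1 (0.76, adjusted p = 0.194). Without pEF replicate 1 the scaled folds of PSAT1, PSPH, SHMT2 and MTHFD2 were -2.01, -1.59, -1.06 and -1.62. With pEF replicate 2 left out instead they were 0.42, -0.97, -0.14 and -0.17. For these 4 genes only folds are given, without calls, since a lone pEF library remained in either fit.

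**Figure D3:**
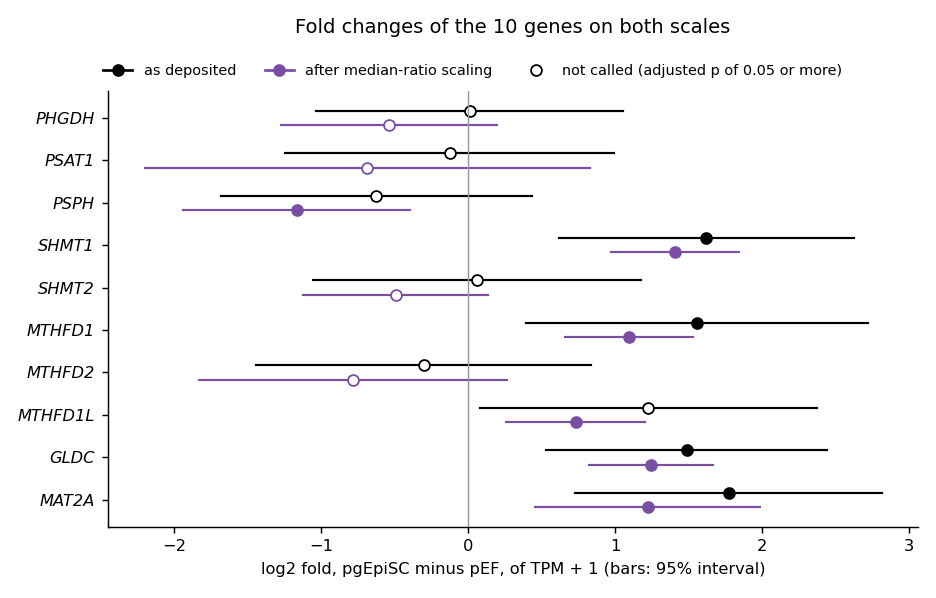
Log2 fold of TPM + 1, pgEpiSC minus pEF, for the 10 genes as deposited (black) and after median-ratio scaling (purple), with 95% intervals that are not adjusted for multiple tests; open circles were not called. SHMT1, MTHFD1, MTHFD1L, GLDC and MAT2A lay above 0 on both scales, with MTHFD1L called only after scaling. The scaled folds of PHGDH, PSAT1, PSPH, SHMT2 and MTHFD2 were all below 0, of which PSPH alone was called.

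In order of level, the pgEpiSC means ran from MAT2A (47.1 TPM) over PSAT1 (34.2), SHMT2, PHGDH, MTHFD1L, PSPH, MTHFD1, MTHFD2 and SHMT1 (2.90) to GLDC (2.46). Each neighbour in that order overlapped the next in its libraries. In pEF the order began with PSAT1 (61.5 TPM), PSPH (19.3), PHGDH (17.3) and SHMT2 (17.1) and ended with MTHFD1 (1.83), GLDC (0.135) and SHMT1 (0.117). There the steps from MTHFD1L to MTHFD1 and from MTHFD1 to GLDC were the ones at which neighbours did not overlap.

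The pEF libraries differed from each other in these enzymes more than in most genes. After median-ratio scaling, 7 of the 10 lay in the top 10% of all tested genes by the difference of pEF library 2 over library 1. PSAT1 was at 20.3 scaled TPM in library 1 and 114 in library 2, a difference of 2.44 log2 units that exceeded that of 99.9% of tested genes. MTHFD2 differed by 1.44 log2 units (above 99.5% of genes), SHMT2 by 0.93, MAT2A by 0.73, PSPH by 0.62, MTHFD1L by 0.54 and PHGDH by 0.47. SHMT1, GLDC and MTHFD1 were outside it, with differences of 0.11, -0.17 and -0.35. SHMT1 and GLDC were at 0.260 scaled TPM or less in both pEF libraries, where the added 1 TPM shrinks any difference. As a plain ratio of library 2 to library 1, SHMT1 was at 1.97, the same as SHMT2, and GLDC at 0.464. With 1 library on each side, the difference between the pEF libraries has no replicate check.

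Genes of the amino acid stress response, in which the transcription factor ATF4 is known to induce serine synthesis and asparagine synthetase, were set beside them. Of 10 tested genes of that list, 5 lay in the same top 10%, named here after their values were seen. ASNS, asparagine synthetase, was at 19.2 scaled TPM in pEF library 1 and 60.8 in library 2. ATF5, a related transcription factor, was at 2.04 and 6.68 scaled TPM. The others were SESN2, MYC and CEBPG. TRIB3 and CHAC1 are targets of the same response that did not pass the filter. They were at 1.47 and 0.648 scaled TPM in library 1 and at 4.25 and 1.84 in library 2. DDIT4, NFE2L2 and CEBPB ran the other way, with differences of -0.80, -0.57 and -0.32 log2 units. What part this response had in the levels of the serine enzymes was not tested. ATF4 itself was not analysed here.

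**Figure D4:**
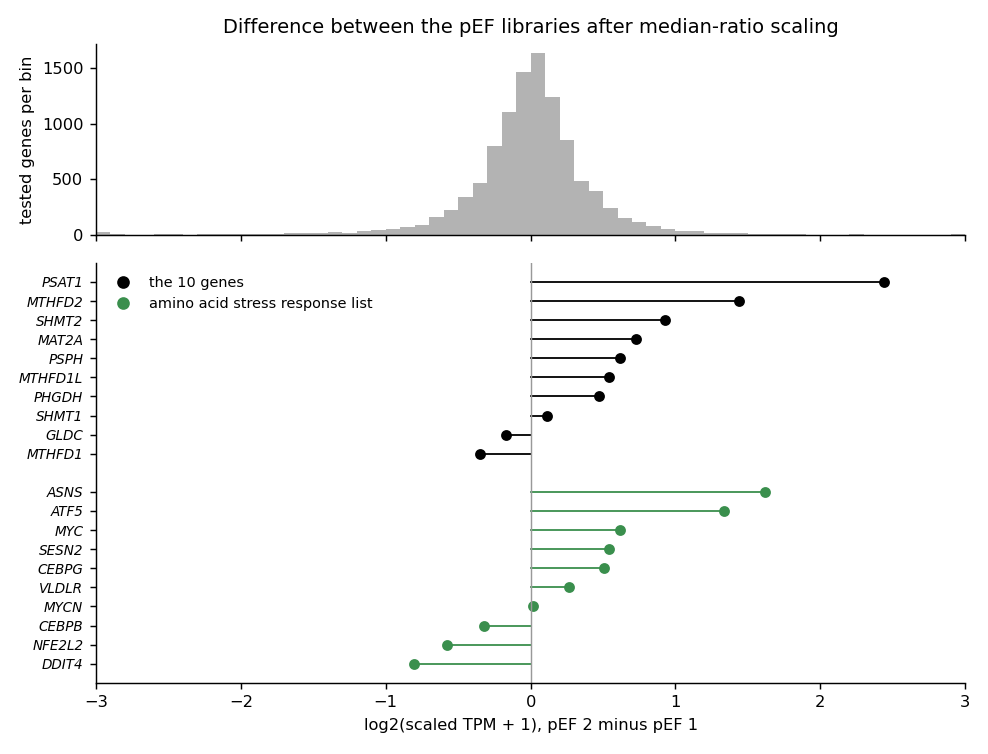
Difference of log2(scaled TPM + 1) between pEF library 2 and pEF library 1; the upper panel counts tested genes per bin, with values beyond 3 placed in the end bins, and the lower panel shows the 10 genes (black) and the amino acid stress response list (green). PSAT1 (2.44), MTHFD2 (1.44), ASNS (1.61) and ATF5 (1.34) lay far out in the upper tail.

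Within pgEpiSC, 4 of the 10 enzymes had the same order of libraries after scaling, as did 12.6% of all tested genes and 6 of the 52 tested genes of the pathway lists described below. The order counted was that of these 4 enzymes themselves, so their number against the other shares is no test. PSAT1 was at 40.8, 16.8, 27.5 and 42.02 scaled TPM in libraries 1 to 4, and PHGDH, PSPH and MTHFD2 had the same order, highest in library 4 and lowest in library 2. As deposited all 4 were lowest in library 1, with PSPH and MTHFD2 highest in library 2 and PHGDH and PSAT1 in library 3. After scaling the highest library exceeded the lowest by 2.13 to 2.65-fold for these 4 genes, against 1.37 to 1.85-fold as deposited. SHMT2, MTHFD1L and MTHFD1 had scaled highest-to-lowest ratios of 1.15, 1.23 and 1.45, against 3.46, 3.65 and 4.36 as deposited. All 3 were highest in library 2. Library 2 also had the largest scaling factor, 2.15 against 0.714 to 1.49 in the other pgEpiSC libraries, and the order of the 4 enzymes was close to that of the scaling factors reversed (0.714, 2.15, 1.49 and 0.727 in libraries 1 to 4). The part of the factors in these orders was not tested.

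The neighbouring pathways were described with 7 lists of 75 genes, of which 59 were in the table and 52 tested. Of the 52, 13 were higher, 6 lower and 33 not called, with a median fold of 0.70 against 0.48 over all tested genes, of which 18.0% were higher and 9.43% lower. After scaling 20 were higher and 10 lower, against 28.6% and 29.8% of all tested genes. Without pEF replicate 1 the counts as deposited were 7 and 1, and without pEF replicate 2 they were 10 and 1. AMT, AHCY, ODC1, PPAT, PAICS, ATIC, VLDLR and MYCN were the 8 of the 19 called genes whose calls as deposited held with each library left out, while 10 calls were lost without pEF replicate 1 and 8 without pEF replicate 2, and ALDH1L2 did not pass the filter in either case. Of the genes whose calls held, AMT, AHCY, PPAT and MYCN passed the filter through pgEpiSC alone. They thus entered the test through the group in which they were high. At an unadjusted limma p below 0.05, 22 of the 52 were higher and 7 lower. The share of all tested genes at that threshold was not counted, so these counts have no background.

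Genes of purine synthesis, which consumes formyl groups carried by folate, were higher in pgEpiSC in 6 of 9 tested cases. With 0 lower, the list median was 1.74. Of all tested genes 18.0% were called higher and 9.43% lower. PAICS, a bifunctional enzyme of the middle of the pathway, was at 53.1, 97.1, 66.8 and 52.05 TPM in pgEpiSC libraries and at 2.23 and 4.24 TPM in pEF libraries (fold 4.01 ± 0.50, adjusted p = 3.21e-08). ATIC, which uses a formyl-folate in the closing steps, was at 48.7 ± 21.5 against 5.0 ± 2.6 TPM (3.03 ± 0.51, adjusted p = 1.48e-05). PPAT, the committing enzyme, was at 9.92 ± 6.07 against 0.236 ± 0.0958 TPM and passed the filter through pgEpiSC alone, and ADSS2, which leads to AMP, at 20.2 ± 11.0 against 3.99 ± 0.662 TPM. GART, the other user of formyl-folate, and GMPS were the remaining calls, both named after their values were seen. ADSL, IMPDH1 and IMPDH2 were not called as deposited.

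In the methionine cycle and polyamine list 3 of 8 tested genes were higher and 0 lower, against 18.0% and 9.43% of all tested genes (list median 0.66). AHCY, which hydrolyses the S-adenosylhomocysteine left after methyl transfer, was at 19.3, 90.3, 36.1 and 17.2 TPM in pgEpiSC libraries and at 0.832 and 2.18 TPM in pEF libraries. Its fold of 3.79 ± 0.57 (adjusted p = 1.73e-06) was the largest of that list, and the ranges were far apart. Only pEF library 2 reached 1 TPM, so AHCY passed the filter through pgEpiSC alone. ODC1, ornithine decarboxylase, was at 130 ± 104 against 15.9 ± 12.2 TPM, and MTAP, which salvages methionine, at 33.8 ± 9.01 against 11.3 ± 3.58 TPM. MAT2B, the regulatory partner of MAT2A, was at 22.7 ± 4.77 against 18.3 ± 2.53 TPM and not called (0.28, adjusted p = 0.703), while MAT1A, the liver form, was at most 0.260 TPM in any library. The remethylating enzymes MTR and MTRR were not called. Of the transsulfuration pair, CTH was higher (23.6 ± 3.65 against 5.94 ± 4.06 TPM; 1.95, adjusted p = 0.00417) and CBS was not called.

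In the glycine cleavage and threonine list 2 of 3 tested genes, AMT and DLD, were higher and 0 lower. The shares of all tested genes were 18.0% and 9.43%. GCSH, the carrier protein of the cleavage system, was not analysed here. AMT, the aminomethyltransferase of the same system, was at 6.02, 15.9, 12.4 and 7.33 TPM in pgEpiSC libraries and at 0.0607 and 0.156 TPM in pEF libraries (fold 3.28 ± 0.56, adjusted p = 1.99e-05). DLD, the dehydrogenase it shares with the 2-oxoacid dehydrogenase complexes, was at 40.5 ± 2.72 against 13.1 ± 2.58 TPM (1.57, adjusted p = 0.0127), a call not made after scaling (1.01, adjusted p = 0.0694) and lost as deposited without pgEpiSC replicate 3, pEF replicate 1 or pEF replicate 2. AMT passed the filter through pgEpiSC alone. GCAT was not called as deposited, and SDS and SDSL, which degrade serine, were at most 0.143 TPM in any library.

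Against 18.0% and 9.43% of all tested genes, 0 of 10 in the rest of the folate cycle were higher and 1 was lower. That gene was ALDH1L2, the mitochondrial enzyme that oxidises formyl-folate, at 0.235, 0.794, 0.641 and 0.241 TPM in pgEpiSC libraries and at 5.87 and 20.9 TPM in pEF libraries (fold -3.07 ± 0.54, adjusted p = 2.97e-05). It passed the filter through pEF alone. Its cytosolic paralog ALDH1L1, named after its values were seen, was at 0.412, 1.63, 1.03 and 0.541 TPM in pgEpiSC against 0.104 and 0.0396 TPM in pEF, which was not called as deposited (0.78, adjusted p = 0.0824) and was called higher after scaling (0.61, adjusted p = 0.00379). ALDH1L1 passed the filter through pgEpiSC alone. TYMS, thymidylate synthase, was at 27.7 ± 18.01 against 13.7 ± 4.22 TPM and not called (0.81, adjusted p = 0.256). Among the carriers of folate and serine 1 of 10 was lower, SFXN3, a sideroflexin (0.869 ± 0.474 against 4.54 ± 3.49 TPM; -1.44, adjusted p = 0.0294), and 0 were higher. SFXN3 passed the filter through pEF alone. After scaling 3 genes of that list were higher and 3 lower, against 28.6% and 29.8% of all tested genes. SFXN1, the mitochondrial serine carrier, also named after its values were seen, was at 5.51 ± 2.38 against 1.66 ± 0.0395 TPM and not called as deposited (1.21, adjusted p = 0.103) but called higher after scaling (0.77, adjusted p = 0.0119).

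Of the amino acid stress response list 1 of 10 tested genes was higher and 4 lower, against 18.0% and 9.43% of all tested genes. After scaling 2 were higher and 5 lower, against 28.6% and 29.8%. VLDLR, a lipoprotein receptor and stress target (1.07 ± 0.443 against 18.9 ± 8.94 TPM), CEBPB, a bZIP transcription factor (2.75 ± 1.45 against 14.9 ± 2.82 TPM), and NFE2L2, the regulator of antioxidant genes (9.82 ± 2.49 against 35.2 ± 2.40 TPM), were lower, as was DDIT4, an inhibitor of mTORC1 signalling (4.28 ± 2.91 against 12.9 ± 0.784 TPM). MYCN, a MYC family factor, was higher at 8.95 ± 7.49 against 0.0211 ± 0.0125 TPM (3.0 ± 0.59, adjusted p = 1.52e-04) and passed the filter through pgEpiSC alone. ASNS was at 40.3, 105, 75.3 and 40.7 TPM in pgEpiSC libraries and at 11.3 and 59.03 TPM in pEF libraries, an overlap, and was not called (1.17, adjusted p = 0.0941).

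**Figure D5:**
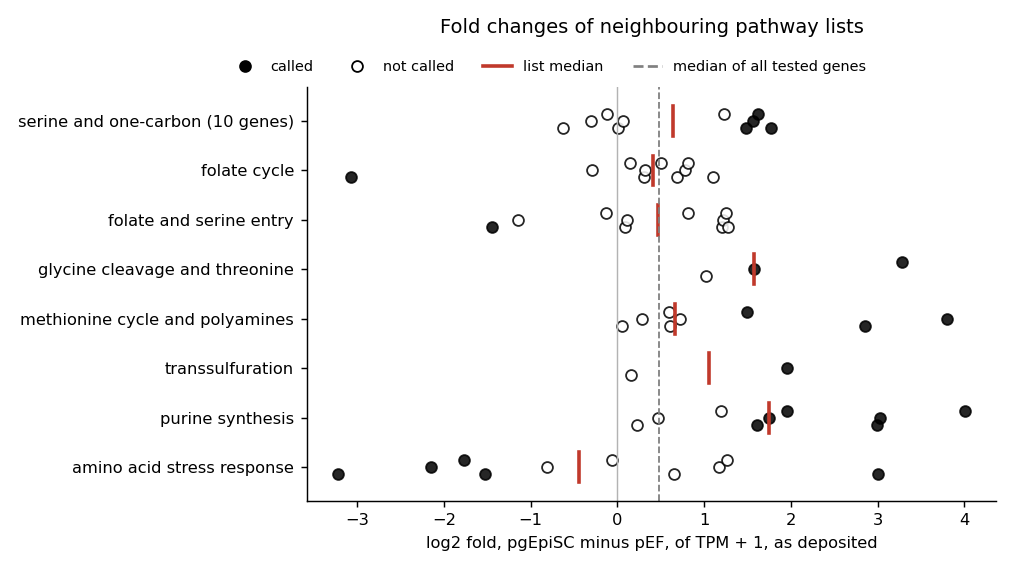
Log2 fold of TPM + 1, pgEpiSC minus pEF, as deposited, for the 10 enzymes and each tested gene of the neighbouring lists; filled circles were called, red bars are list medians and the dashed line is the median of all tested genes (0.48). Purine synthesis had its median at 1.74 with 6 of 9 genes called higher, and the amino acid stress response list had 4 of 10 called lower. Of all tested genes 18.0% were called higher and 9.43% lower.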

How the data were processed

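Each library has a column of TPM values, deposited by the authors (per the file headers). The submitters' processing notes list the tools STAR 2.6.0c and kallisto 0.44.0; for their roles, the build and the gene models nothing is given in the sources used here. Gene IDs were paired with symbols for 14062 of 20132 rows, and 2 rows with the same symbol were summed. Genes with at least 1 TPM in at least 2 libraries were fitted in limma 3.58.1 (R 4.3.3) on log2(TPM + 1), with group as factor and a trended empirical Bayes variance. The fit was also run on simulated data in which most genes had equal group means. Recovery of large changes was required there only of the fit after median-ratio scaling, not of the fit as deposited. Ratios were compared by exact permutation. Other steps used Python 3.11.15 with numpy 2.4.6, pandas 2.3.3 and matplotlib 3.10.9.

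The genes and lists were chosen with earlier results of these data known. Named genes are the 10 enzymes, up to 4 called genes per list by absolute fold, called genes against their list's direction, and the 5 genes most like PHGDH; any other is said to be named after its values were seen, as were SESN2, MYC, CEBPG, TRIB3, CHAC1, DDIT4 and the genes given as not called. Alternatives were other pseudocounts, filters and scalings, a variance without trend, a replicate block, and each library left out.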

Additional observations from a re-analysis of the deposited data

How the results depend on the processing

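As deposited 4 of the 10 enzymes were called higher and 0 lower. The count higher was 1 with a pseudocount of 5, 0 with no filter and 2 with a mean TPM of at least 5, where SHMT1 and GLDC were not tested. With no filter 4 were higher at an unadjusted limma p below 0.05, a threshold at which the share of all genes was not counted. Over the libraries left out, on both scales, it ran from 0 (without pEF replicate 1) to 5. The count lower was 1 after median-ratio scaling, 1 after quantile normalization and 2 after rescaling to 1000000. It was 0 to 1 over the pgEpiSC libraries left out, on both scales. That range leaves out the fits with a lone pEF library, in which lower folds were larger. Without pEF replicate 1 the scaled folds of PSAT1, PSPH, SHMT2 and MTHFD2 were -2.01, -1.59, -1.06 and -1.62.

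Pathway genes called higher and lower numbered 20 and 10 after median-ratio scaling and 23 higher after quantile normalization, and 7 to 21 and 1 to 10 over the libraries left out. All genes called higher numbered 967 with a pseudocount of 5, 787 with no filter, 1185 with a mean of at least 5 TPM, 2985 after median-ratio scaling, 3374 after quantile normalization and 360 to 2951 over the libraries left out. All genes called lower numbered 368 with a mean of at least 5 TPM, 3109 after median-ratio scaling, 2924 after rescaling, 2779 after quantile normalization and 194 to 2931 over the libraries left out. The median fold of the 10 enzymes ran from -0.25 to 1.45 over the libraries left out.

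The fold of PHGDH, 0.01 as deposited, was -0.0020 with a pseudocount of 5, -0.54 after median-ratio scaling, -0.78 after rescaling (called lower, adjusted p = 0.0445), -0.45 after quantile normalization and -0.88 to 0.59 over the libraries left out. That of SHMT2 was -0.49, -0.73 and -0.38 under the same 3 scalings and -1.06 to 0.86 over the libraries left out. Over the libraries left out PSAT1 ran from -2.01 to 1.43, PSPH from -1.59 to 0.026 and MTHFD2 from -1.62 to 0.71, and the MTHFD1L/MTHFD1 difference from -1.11 to 0.030. The SHMT2/SHMT1 and MTHFD2/MTHFD1 differences kept their sign with 1 TPM added (-1.56 and -1.86) and with each library left out (-4.58 to -4.28, and -3.30 without pEF replicate 1 to -1.23 without pEF replicate 2).

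Samples share replicate numbers 1 and 2 only, and the deviations of same-numbered libraries from their group means correlated at 0.0701 and 0.112, so the numbers were not taken to pair the libraries. With the replicate block the fold of PHGDH was -0.087 and MTHFD1L was called higher (1.39), and after median-ratio scaling with the block 1 enzyme and 2580 genes were called lower, with PHGDH at -0.75 and SHMT2 at -0.52, and MAT2A was no longer called (1.22, adjusted p = 0.0735). The causes of these changes were not tested. Read depth is not kept in TPM, so its limit on the low values of SHMT1 and GLDC in pEF is unknown.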

Other observations

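The pattern of PHGDH over the 6 libraries after median-ratio scaling was closest to that of MMUT, methylmalonyl-CoA mutase, by the mean absolute difference of log2(scaled TPM + 1) after centring each gene (0.0765 log2 units). MMUT was at 6.56, 3.03, 5.32 and 6.48 scaled TPM in pgEpiSC libraries and at 6.23 and 7.90 in pEF libraries. ATF2, ZNF148, MED13 and TMEM234 followed, at 0.123 to 0.131 log2 units.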
